A study of Mus musculus with 21 samples.

Results

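The mitochondrial ribosomal protein genes are the nuclear genes, named Mrpl for the large and Mrps for the small subunit, that encode the protein part of the mitochondrial ribosome. Members were the transcript clusters of the array annotated to a single gene symbol made of Mrpl or Mrps and a number. This gave 69 clusters for 68 genes out of 14860 genes tested. Mrpl48 had 2 clusters, of which the one with the higher mean was used, and 3 more clusters that carry a second gene's symbol beside an Mrpl or Mrps symbol (Mrps6, Mrps22 and Mrpl53) were not used. A current mouse gene table holds 78 protein-coding genes with such names.

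The cells were cultured splenocytes of Marilyn mice, which carry a transgenic T cell receptor for a male antigen, abbreviated HY. Foxp3 is the transcription factor that marks regulatory T cells, and transforming growth factor beta (TGFB) given during activation can induce it in CD4 T cells. Reporter cells (Marilyn.Foxp3hCD2) report Foxp3 expression by human CD2 (hCD2) on the cell surface, and were activated and left untreated (5 arrays), or activated with TGFB and sorted as CD4+hCD2- (5 arrays) or CD4+hCD2+ (5 arrays). Knockout cells (Marilyn.Foxp3-/-), labelled CD4+CD2, were activated and left untreated (3 arrays) or given TGFB (3 arrays). All 5 groups share the receptor transgene and the activation, and the untreated reporter cells are also labelled CD4+CD2. The labels call the arrays biological replicates. Age, sex, dose, culture time and the number of animals behind each array are not given in the labels. The spread behind the p-values is therefore that between these samples, and how far it holds for separate animals is not known. The labels number 2 studies: study 1 holds reporter replicates 1 to 3, and study 2 holds the other reporter arrays and the knockout arrays.

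Each array gave 1 log2 value per cluster. The cluster shared by Foxp3 and its neighbour Flicr had medians of 6.33 in untreated reporter cells, 6.73 in the hCD2-negative fraction and 10.44 in the hCD2-positive fraction, and 6.86 and 8.49 in untreated and TGFB-treated knockout cells. The mean of 11 T cell markers lay between 9.33 and 11.0 on all 21 arrays, whereas 7 B cell, 6 myeloid, 5 granulocyte and 3 erythroid markers had means between 4.70 and 6.25, and 3 NK cell markers between 5.67 and 7.46. Lower quartiles over all clusters were 4.93 to 5.02 on reporter arrays and 5.61 to 5.68 on knockout arrays, which may mean that each genotype was normalized on its own, and their levels are set side by side with no test. On 4 reporter arrays, replicate 3 of the hCD2-positive fraction and replicates 1, 3 and 4 of the hCD2-negative fraction, the interquartile range was under 2.5 (2.01 to 2.47), against 2.70 to 3.14 on the other 11. Leaving out these 4 narrow arrays keeps 5 untreated, 4 hCD2-positive and 2 hCD2-negative arrays of the reporter cells, so that fewer arrays and range cannot be told apart in those fits. Counts of calls, and the calls of named genes that were lost, are given with and without them.

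Mitochondrial ribosomes translate the few proteins encoded by mitochondrial DNA, all of them subunits of the respiratory chain and the ATP synthase. Their RNA comes from mitochondrial DNA, but all their proteins are encoded in the nucleus, made in the cytosol and imported. Many of them descend from the proteins of the bacterial ribosome, and others are found in mitochondria but not in bacteria. T cells enlarge their mitochondria and raise mitochondrial translation when they are activated, and regulatory T cells are known for relying on respiration. Of the 68 members, 45 belong to the large subunit and 22 to the small one, and Mrps36 is not assigned because its product is now known as a subunit of the 2-oxoglutarate dehydrogenase complex. A bacterial counterpart is known for 41, and 26 are specific to mitochondria. The genes lie on 17 chromosomes.

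Promoter sequence is shown for 6 members on which the results turn, in order to set genes that fell beside one that did not. These 6 are a choice and do not show how often such letters go with a fall. Counts over all members with a window are given further below. RefSeq windows on GRCm38.p6, from 250 bases before to 50 bases after the start of transcription, were available for 59 members. Letters were searched on both strands for GCGCA and GCGC with any 1 base between them, which nuclear respiratory factor 1 (NRF1, a regulator of nuclear genes for mitochondria) binds, for CCGGAAGT, bound by ETS family factors, for AAGATGGCG, bound by YY1, and for the E-box CACGTG, bound by Myc and related factors. The 120 bases just before the start are printed 5′ to 3′, with letters of the named motif in capitals.
Mrpl45 (chr11:97315596-97315715, plus strand, NRF1): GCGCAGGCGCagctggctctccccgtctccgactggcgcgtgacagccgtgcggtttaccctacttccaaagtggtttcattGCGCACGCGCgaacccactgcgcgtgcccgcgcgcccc
Mrpl32 (chr13:14613038-14613157, minus strand, NRF1): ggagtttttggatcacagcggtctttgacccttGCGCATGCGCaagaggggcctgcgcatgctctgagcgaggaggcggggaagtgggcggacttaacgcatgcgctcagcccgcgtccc
Mrpl57 (chr14:57826119-57826238, plus strand, NRF1): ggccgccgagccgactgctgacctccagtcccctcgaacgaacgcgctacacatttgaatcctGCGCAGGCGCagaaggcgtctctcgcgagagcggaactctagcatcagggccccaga
Mrpl51 (chr6:125192080-125192199, plus strand, ETS): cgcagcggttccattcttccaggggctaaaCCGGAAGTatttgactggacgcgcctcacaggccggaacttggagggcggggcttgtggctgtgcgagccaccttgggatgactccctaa
Mrpl1 (chr5:96209995-96210114, plus strand, no motif found): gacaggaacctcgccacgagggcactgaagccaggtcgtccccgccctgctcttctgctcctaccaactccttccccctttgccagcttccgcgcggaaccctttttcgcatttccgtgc
Mrps5 (chr2:127587306-127587425, plus strand, no motif found): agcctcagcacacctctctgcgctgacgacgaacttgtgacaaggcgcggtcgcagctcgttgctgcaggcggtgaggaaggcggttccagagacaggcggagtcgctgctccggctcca

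The NRF1 letters stood in 11 of the 59 member windows (18.6%), against 8.48% of the windows of 11869 tested genes and 5.19% of all 27025 windows. The ETS letters stood in 9 (15.3%), against 6.49% of tested genes, and the YY1 letters in 7 (11.9%), against 2.49%. The E-box stood in 5 (8.47%), against 10.2%. A match describes the letters and is not a binding site.

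In reporter cells given TGFB, most members were lower than in untreated reporter cells, in both sorted fractions, by a modest amount. The median log2 fold change of the 68 genes was -0.46 in the hCD2-positive fraction (1.38-fold lower) and -0.58 in the hCD2-negative fraction (1.5-fold lower), against medians of -0.07 and -0.09 over all genes tested. A gene was called when limma's moderated test gave an adjusted p under 0.05 over all 14860 genes. By this rule 12 members fell and 0 rose in the hCD2-positive fraction, where 9.66% of all genes were called lower and 1.94% higher. In the hCD2-negative fraction 35 fell and 0 rose, where 16.9% of all genes were called lower and 2.05% higher. Without the dimmest genes (a share of 0.333), 66 members remained among 9907 genes, and the medians over all genes were -0.20 and -0.28. Relative to these the members' medians were -0.26 and -0.31. There 12 members fell in the hCD2-positive fraction (18.2%, all genes 14.4%) and 38 in the hCD2-negative fraction (57.6%, all genes 25.7%). Both comparisons use the same 5 untreated arrays, so they are not independent of each other. In bulk RNA, fewer cells of a type and less RNA per cell cannot be told apart.

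The number of called members moved with the choice of arrays and scaling. Without the 4 narrow arrays, 7 members fell in the hCD2-positive fraction, where 7.47% of all genes were called lower, and 2 in the hCD2-negative fraction, where 4.81% were, so that the share of the latter was 2.94% and not above that of all genes. The medians were then -0.31 and -0.36. After quantile normalization of the arrays, which gives all arrays 1 range, 12 members fell in the hCD2-positive fraction (all genes, 9.74%) and 24 in the hCD2-negative fraction (12.5%), where 1 member, Mrps5, rose (all genes called higher, 9.1%). Quantile normalization moved the median of all genes by 0.13 and 0.18. Relative to it, the members' medians were -0.40 and -0.49 in the deposited values and -0.29 and -0.38 after quantile normalization. It also turned the split of all called genes from 1436 lower and 289 higher to 1447 and 1090 in the hCD2-positive fraction, and from 2507 and 304 to 1857 and 1352 in the hCD2-negative fraction.

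**Figure D1:**
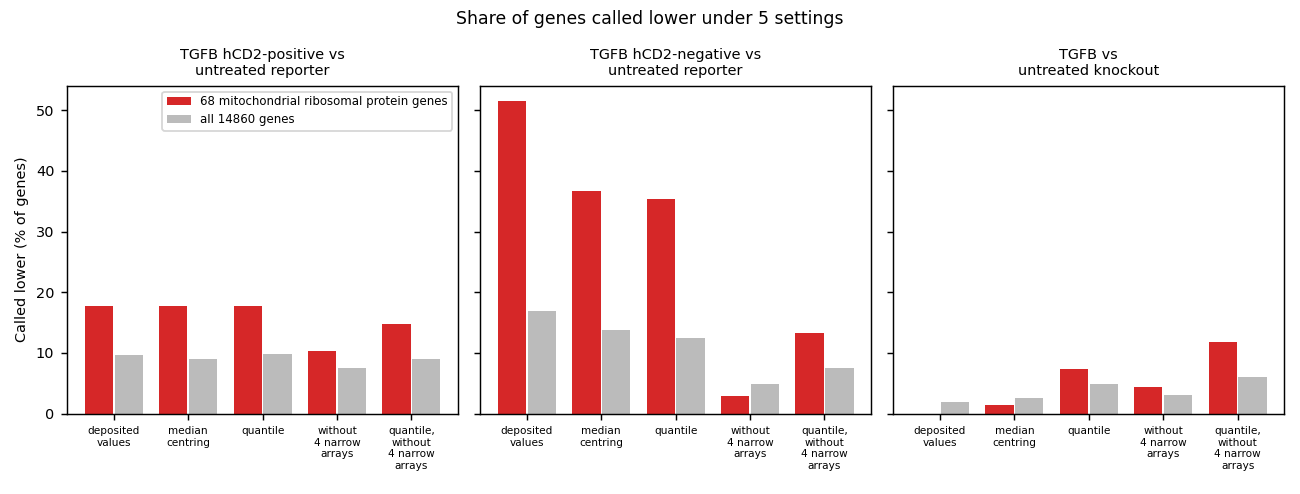
Bars give the percentage of genes called lower (adjusted p under 0.05 by limma) among the 68 mitochondrial ribosomal protein genes (red) and all 14860 genes (grey), in 3 comparisons under 5 settings. In the hCD2-negative fraction the members' share falls from 51.5% in the deposited values to 2.94% without the 4 narrow arrays.

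The median over the 68 members also differed between arrays of a group. It was 7.83, 7.65, 7.92, 8.31 and 7.77 on the untreated reporter arrays, replicates 1 to 5. Hybridisations of the hCD2-negative fraction gave 6.87, 7.43, 6.81, 7.19 and 7.65, and those of the hCD2-positive fraction 7.61, 7.51, 6.58, 7.34 and 7.71. The 4 narrow arrays held the 4 lowest of these 15 medians, and untreated replicate 4, whose interquartile range of 3.14 was the widest, held the highest. Group means were 7.89 ± 0.25 (SD, n = 5) for untreated cells, 7.19 ± 0.36 (SD, n = 5) for the hCD2-negative and 7.35 ± 0.45 (SD, n = 5) for the hCD2-positive fraction. After quantile normalization they were 7.80, 7.48 and 7.53. Replicate 5 of the hCD2-positive fraction lay above untreated replicate 2 and replicate 5 of the hCD2-negative fraction level with it, so both fractions touched the untreated range.

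**Figure D2:**
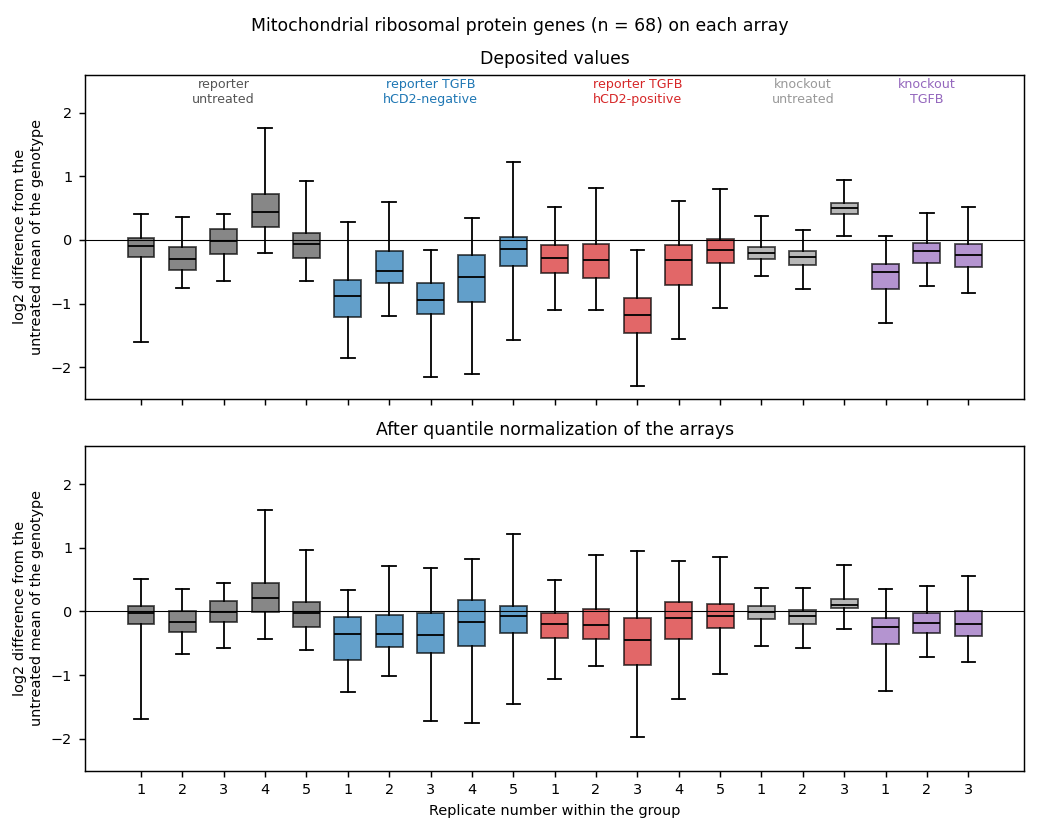
Each box shows, for 1 array, the log2 difference of the 68 members from the untreated mean of their genotype (box: quartiles, line: median, whiskers: lowest and highest member), in the deposited values (top) and after quantile normalization (bottom). The boxes of the narrow arrays (replicate 3 of the hCD2-positive fraction and 1, 3 and 4 of the hCD2-negative fraction) are the 4 lowest in the top panel and lie nearer to the others in the bottom panel.

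Large-subunit members. Mrpl1 encodes the counterpart of bacterial L1, which forms the mobile stalk beside the exit site for transfer RNA. It was 8.49, 8.14, 8.36, 7.93 and 7.77 on the untreated reporter arrays, replicates 1 to 5. It was 7.21, 7.44, 5.98, 6.32 and 7.12 in the hCD2-negative fraction and 7.63, 7.30, 6.52, 6.60 and 7.13 in the hCD2-positive fraction. No array of either fraction reached the lowest untreated array, and in both fractions the lowest array was a narrow one. The log2 fold change was -1.10 ± 0.27 (SE, adjusted p = 0.0105) in hCD2-positive cells and -1.32 ± 0.27 (SE, adjusted p = 0.00201) in hCD2-negative cells, or 2.15-fold and 2.5-fold lower. Without the narrow arrays the values were -0.92 and -0.81 (adjusted p = 0.00374 and 0.0411), and after quantile normalization -0.81 and -0.98 (0.0112 and 0.00219).

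Mrpl51, a mitochondria-specific protein of the large subunit, was 6.67, 6.28, 6.31, 6.96 and 6.48 on the untreated reporter arrays. In the hCD2-negative fraction it was 5.64, 5.50, 6.33, 5.22 and 4.97, and in the hCD2-positive fraction 5.46, 6.03, 5.87, 4.99 and 5.71. The hCD2-positive arrays all lay below the untreated ones, and a single hCD2-negative array, the narrow replicate 3, reached into their range. It fell by 0.93 ± 0.24 (SE, adjusted p = 0.0151) and by 1.01 ± 0.24 (SE, adjusted p = 0.00638) on the log2 scale in the hCD2-positive and hCD2-negative fractions. Here the narrow arrays were not the lowest, and without them the values were -0.98 and -1.29 (adjusted p = 0.0155 and 0.0156). Mrpl1 and Mrpl51 were the 2 members called in both fractions in the deposited values, after quantile normalization and without the narrow arrays. The lowest TGFB values of Mrpl51, 4.97 and 4.99, lay at the lower quartiles of the reporter arrays (4.93 to 5.02). Over the 15 reporter arrays Mrpl51 correlated with the mean of the members, itself included, at 0.37, against medians of 0.84 for members and 0.36 for all genes.

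Mrpl45 is a mitochondria-specific protein at the exit of the peptide tunnel, where the ribosome meets the inner membrane. Its untreated values were 8.43, 8.14, 7.80, 7.97 and 8.08. The hCD2-negative arrays gave 6.83, 7.19, 6.32, 5.97 and 7.24, all below the untreated range, and the hCD2-positive arrays 7.81, 7.51, 6.75, 6.78 and 7.09, of which replicate 1 touched it. Its fall of 1.37 ± 0.25 on the log2 scale (SE, adjusted p = 0.000802, 2.59-fold lower) was the steepest of the members in the hCD2-negative fraction, and in the hCD2-positive fraction it fell by 0.90 ± 0.25 (SE, adjusted p = 0.0244). Without the narrow arrays the hCD2-negative value was -0.84 (adjusted p = 0.0575) and the hCD2-positive value -0.76 (adjusted p = 0.0231).

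Mrpl32, the counterpart of bacterial L32, is known as a substrate that the m-AAA protease of the inner membrane must cut before it joins the ribosome. Untreated arrays read 8.39, 7.75, 7.94, 8.08 and 7.89. Those of the hCD2-negative fraction read 6.69, 7.22, 6.14, 6.27 and 6.94, and those of the hCD2-positive fraction 7.96, 7.92, 6.48, 6.61 and 7.45. All hCD2-negative arrays lay below the untreated range, whereas hCD2-positive replicates 1 and 2 lay inside it. It fell by 1.36 ± 0.29 on the log2 scale in hCD2-negative cells (SE, adjusted p = 0.00329), and the value in hCD2-positive cells was -0.73 ± 0.29 (SE, adjusted p = 0.123). Without the narrow arrays neither passed (adjusted p = 0.110 and 0.266).

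The other large-subunit members called in both fractions were Mrpl19 (-0.84 in hCD2-positive and -1.25 in hCD2-negative cells), Mrpl24 (-0.88 and -1.10), Mrpl33 (-0.68 and -0.69) and Mrpl57 (-0.63 and -0.48). Mrpl19, Mrpl24 and Mrpl33 have bacterial counterparts, and Mrpl57 is mitochondria-specific. Of these genes Mrpl57 was called in hCD2-positive cells without the narrow arrays (-0.55, adjusted p = 0.0252), and the other calls were lost, with adjusted p from 0.0556 to 0.102 in hCD2-positive and from 0.112 to 0.206 in hCD2-negative cells. After quantile normalization Mrpl57 lost both calls, at -0.30 and -0.03 (adjusted p = 0.127 and 0.867), and Mrpl33 lost that in hCD2-negative cells (-0.38, adjusted p = 0.0535). Of the 45 large-subunit genes, 7 fell in hCD2-positive cells, with a median of -0.44, and 22 fell in hCD2-negative cells, with a median of -0.59. Of all genes 9.66% and 16.9% were called lower there. After quantile normalization 7 and 15 large-subunit genes fell, where 9.74% and 12.5% of all genes did. Mrpl12, which forms the stalk that recruits elongation factors, fell by 0.56 in hCD2-negative cells (adjusted p = 0.0351) and had a value of -0.42 in hCD2-positive cells (adjusted p = 0.147). Its call in hCD2-negative cells was lost after quantile normalization (-0.13, adjusted p = 0.427) and without the narrow arrays (-0.41, adjusted p = 0.422). Mrpl40, a mitochondria-specific protein, fell by 1.12 in hCD2-negative cells (adjusted p = 0.0179), and its value in hCD2-positive cells was -0.82 (adjusted p = 0.105). The call in hCD2-negative cells held after quantile normalization (-0.75, adjusted p = 0.00943) and was lost without the narrow arrays (-0.61, adjusted p = 0.429).

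**Figure D3:**
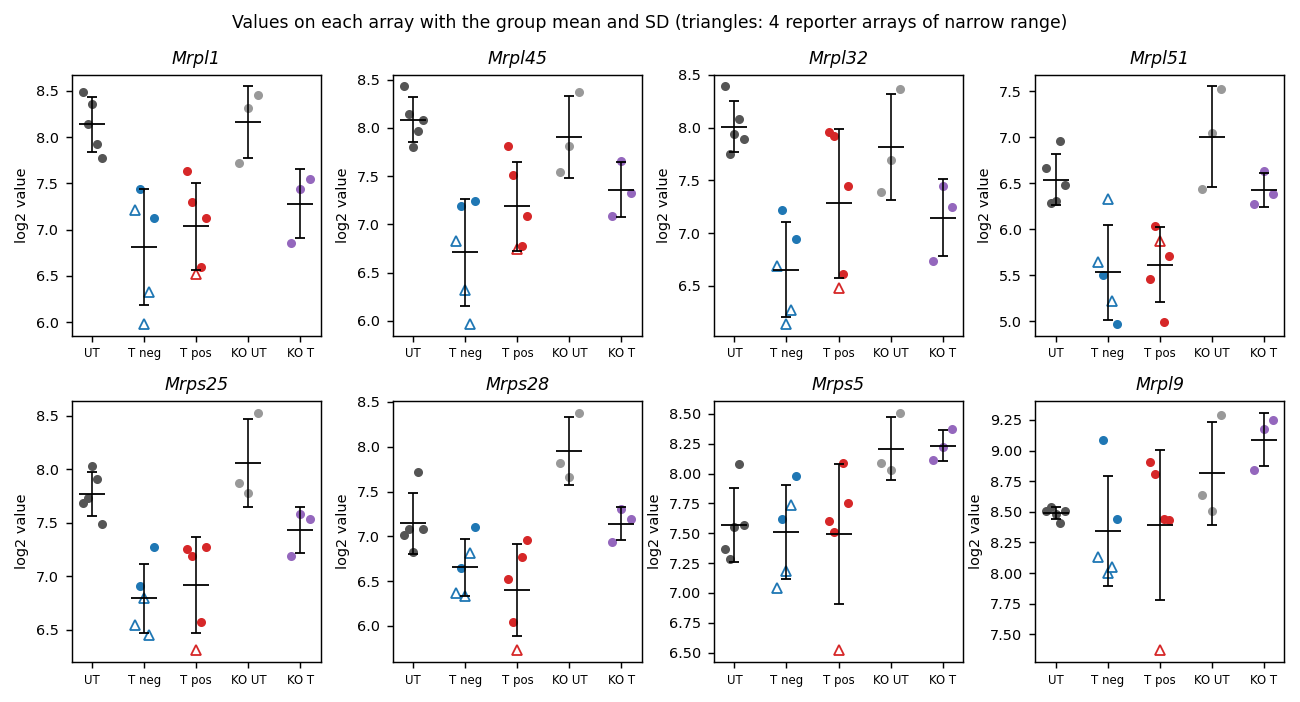
Points are the log2 values of 8 members on each array, open triangles are the 4 narrow reporter arrays, and black bars are the group mean and SD (UT, untreated; T neg and T pos, TGFB hCD2-negative and hCD2-positive; KO, knockout; n = 5 arrays per reporter group and 3 per knockout group). Mrpl1, Mrpl45, Mrpl51 and Mrps25 separate most TGFB arrays of the reporter cells from the untreated ones, and Mrps5 and Mrpl9 do not.

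Small-subunit members. Mrps7, the counterpart of bacterial S7, organises the head of the small subunit. It was 8.22, 7.98, 8.36, 8.11 and 7.80 on the untreated reporter arrays. In the hCD2-negative fraction it was 7.20, 7.57, 7.26, 6.96 and 7.50, and in the hCD2-positive fraction 7.72, 7.64, 6.99, 7.26 and 7.46. Neither fraction overlapped the untreated arrays. It fell by 0.68 ± 0.17 on the log2 scale in hCD2-positive cells (SE, adjusted p = 0.012) and by 0.80 ± 0.17 in hCD2-negative cells (SE, adjusted p = 0.00291). Without the narrow arrays the values were -0.55 and -0.54 (adjusted p = 0.0297 and 0.118).

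Mrps25, a mitochondria-specific protein of the small subunit, was 7.69, 7.73, 8.03, 7.91 and 7.49 on the untreated reporter arrays. In the hCD2-negative fraction it was 6.55, 6.91, 6.80, 6.45 and 7.27, and in the hCD2-positive fraction 7.26, 7.19, 6.31, 6.57 and 7.27. Again no TGFB array reached the lowest untreated one. It fell by 0.85 ± 0.21 on the log2 scale in hCD2-positive cells (SE, adjusted p = 0.0115) and by 0.97 ± 0.21 in hCD2-negative cells (SE, adjusted p = 0.00325). Without the narrow arrays the call held in hCD2-positive cells (-0.69, adjusted p = 0.0285) and was lost in hCD2-negative cells (-0.67, adjusted p = 0.114).

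Mrps28, which sits where bacterial S1 does, was 7.01, 7.08, 6.83, 7.72 and 7.08 on the untreated reporter arrays. It was 6.37, 6.65, 6.33, 6.82 and 7.10 in the hCD2-negative fraction, and 6.52, 6.04, 5.73, 6.77 and 6.96 in the hCD2-positive fraction. Replicate 5 of each fraction lay inside the untreated range. It fell by 0.74 ± 0.17 on the log2 scale in hCD2-positive cells (SE, adjusted p = 0.00644) and by 0.49 ± 0.17 in hCD2-negative cells (SE, adjusted p = 0.0475). The second call was lost after quantile normalization (-0.20, adjusted p = 0.214) and without the narrow arrays (-0.32, adjusted p = 0.494).

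The remaining small-subunit genes called in both fractions were Mrps18b (-0.90 in hCD2-positive and -0.86 in hCD2-negative cells) and Mrps27 (-0.62 and -0.61), both counted with the mitochondria-specific proteins by their place in the ribosome. Mrps18b is 1 of 3 vertebrate genes related in sequence to bacterial S18, of which Mrps18a, whose product sits in the large subunit, and Mrps18c, the direct counterpart of S18, were called in hCD2-negative cells alone. When the narrow arrays were left out none of these genes was called. Mrps18b had adjusted p of 0.0543 and 0.492 in hCD2-positive and hCD2-negative cells and Mrps27 of 0.0918 and 0.449, and in hCD2-negative cells Mrps18a had 0.441 and Mrps18c 0.670. After quantile normalization Mrps18c was not called (adjusted p = 0.121). Of the 22 small-subunit genes, 5 fell in hCD2-positive cells, with a median of -0.50, and 13 fell in hCD2-negative cells, with a median of -0.55. By origin, 6 of 41 genes with a bacterial counterpart and 6 of 26 mitochondria-specific genes fell in hCD2-positive cells, and 21 and 14 in hCD2-negative cells. Medians were -0.43 and -0.51 in hCD2-positive cells and -0.54 and -0.65 in hCD2-negative cells. The counts by subunit and origin stand beside 9.66% and 16.9% of all genes called lower in the hCD2-positive and hCD2-negative fractions. After quantile normalization, with 9.74% and 12.5% of all genes called lower, 5 and 9 small-subunit genes fell. By origin, 7 and 12 genes with a bacterial counterpart and 5 and 12 mitochondria-specific genes then fell. Differences between subunits or origins were not tested.

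**Figure D4:**
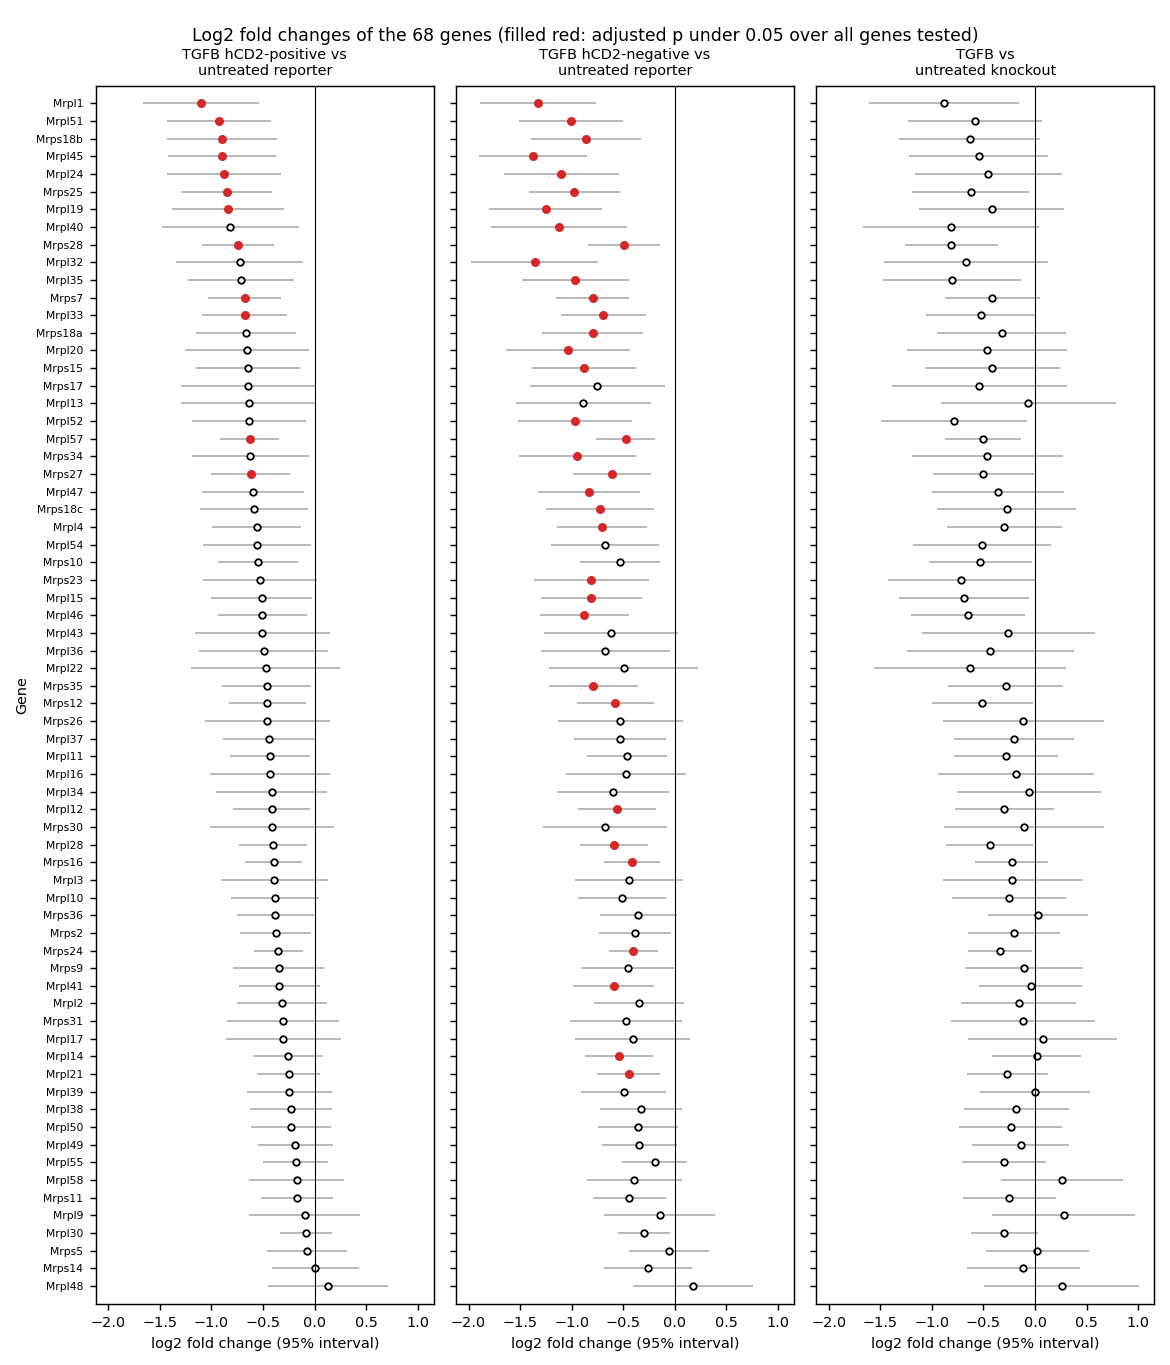
Points give the log2 fold change of each of the 68 genes with its 95% interval in 3 comparisons, sorted by the hCD2-positive value, and filled red points are called (adjusted p under 0.05 by limma over all genes tested). Filled points number 12 in the hCD2-positive, 35 in the hCD2-negative and 0 in the knockout comparison, and most points of all 3 lie left of 0.

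At the other end, 2 members had a positive value in hCD2-positive cells and 1 in hCD2-negative cells, none of them called. Of all genes, 59.4% and 60.4% had a negative value. After quantile normalization 12 members were positive in each fraction, and without the narrow arrays 5 and 7 were. Mrps5, the counterpart of bacterial S5 at the entry of messenger RNA, was 7.37, 7.28, 7.55, 8.08 and 7.57 on the untreated reporter arrays. It was 7.04, 7.62, 7.18, 7.74 and 7.98 in the hCD2-negative fraction and 7.60, 7.51, 6.52, 8.09 and 7.75 in the hCD2-positive fraction. The groups overlapped throughout, with hCD2-positive replicate 3, a narrow array, far below the rest. Its log2 fold changes were -0.08 (95% interval -0.46 to 0.31) and -0.06 (-0.44 to 0.33), and after quantile normalization 0.16 (adjusted p = 0.355) and 0.33 (adjusted p = 0.0438).

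Mrpl9, the counterpart of bacterial L9, had values of -0.10 in hCD2-positive and -0.15 in hCD2-negative cells, with 95% intervals of -0.63 to 0.44 and -0.68 to 0.39. After quantile normalization these were 0.21 and 0.30 (adjusted p = 0.221 and 0.0689), and without the narrow arrays 0.19 and 0.31. Mrps14, the counterpart of bacterial S14, had 0.01 in hCD2-positive cells (95% interval -0.42 to 0.43). For Mrpl48 the values of 0.13 and 0.17 rest on a cluster whose group means were 4.75 to 5.21, near the lower quartile of the arrays. Its second cluster, not used, had means of 2.89 to 4.05 and gave -0.14 and -0.29.

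Counting members whose TGFB arrays all lay below the untreated arrays, without a model, gave 4 in the hCD2-positive fraction (Mrpl1, Mrpl51, Mrps7 and Mrps25), where 6.46% of all genes did so. In the hCD2-negative fraction it gave 10 (Mrpl1, Mrpl20, Mrpl32, Mrpl33, Mrpl45, Mrpl46, Mrps7, Mrps15, Mrps25 and Mrps35), where 9.04% of all genes did. The first share is 5.88% and the second 14.7%. After quantile normalization the numbers were 2 and 7, where 4.78% and 6.22% of all genes did so.

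Leaving out 1 array at a time moved the counts of called members. In the hCD2-positive comparison the count of 12 became 7 without untreated replicate 3, 5 without untreated replicate 4, 6 without hCD2-positive replicate 3 and 5 without hCD2-positive replicate 4. For the hCD2-negative comparison, 35 became 18 and 13 without untreated replicates 3 and 4, and 22, 18 and 14 without hCD2-negative replicates 1, 3 and 4. Shares of all genes called in these fits are not given here. These counts therefore do not show whether the members moved more than all genes did. The medians kept their sign in all these fits, at -0.57 to -0.32 and -0.67 to -0.47. Within study 1 the medians were -0.47 and -0.54 and within study 2 -0.50 and -0.59, with 0 members called in study 1 and 0 and 1 in study 2. Of all 14860 genes, 250 and 508 were called lower in study 1 and 166 and 397 in study 2.

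Sorted fractions compared. No member was called between the hCD2-positive and hCD2-negative fractions in the deposited values. Values were higher in hCD2-positive cells for 60 of 68 members and lower for 8, where 38.9% of all genes were lower. The median log2 difference was 0.14 for members against 0.04 over all genes. Of the members 0 were called, where 0.128% of all genes were called higher and 0.0269% lower. By limma 620 of all 14860 genes had an unadjusted p under 0.05, and among them was 1 member. That was Mrpl32, with 0.63 ± 0.29 (SE, 95% interval 0.02 to 1.25, adjusted p = 1.00), followed by Mrpl45 with 0.48 (-0.04 to 1.00) and Mrpl19 with 0.41 (-0.13 to 0.96). The lowest value was -0.25 for Mrps28 (95% interval -0.60 to 0.10). After quantile normalization 45 members were higher, with a median of 0.02 against -0.01 over all genes. Of the narrow arrays, 3 belong to the hCD2-negative and 1 to the hCD2-positive fraction. Without them, in the deposited values, the median was 0.02, with 39 members higher. Array weights, which give arrays that vary more a smaller part in the fit, moved it the other way, to 0.36, and 28 members were called higher in hCD2-positive cells, where 20.7% of all genes were. The 23 members called in the hCD2-negative fraction alone are not shown to differ between the fractions in the deposited values.

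Knockout cells. TGFB-treated knockout cells gave lower values than untreated ones for 61 of 68 members and for 56.4% of all genes. The median log2 fold change was -0.30 for members, against -0.03 over all genes. With 3 arrays a group, 0 members were called, where 1.85% of all genes were called lower and 0.895% higher. By limma 13 members had an unadjusted p under 0.05, as did 1685 of all 14860 genes. Member medians were 8.11, 7.99 and 8.80 on the untreated arrays and 7.73, 8.16 and 8.07 on the TGFB arrays. Untreated replicate 3 stood highest and had an interquartile range of 2.94, the widest of the knockout arrays, and TGFB replicate 1 stood lowest and had 2.33, the narrowest. Untreated replicates 1 and 2 had 2.41 and 2.38, also under 2.5. That limit was applied to reporter arrays only, so the fits without narrow arrays kept all knockout arrays. Group means were 8.30 ± 0.44 (SD, n = 3) and 7.98 ± 0.23 (SD, n = 3), and the groups overlapped. Leaving out single arrays moved the median between -0.46 and -0.09.

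The member nearest to the threshold was Mrps28. It was 7.82, 7.66 and 8.38 on the untreated knockout arrays and 6.94, 7.30 and 7.19 on the TGFB arrays. These groups did not overlap, and the log2 fold change was -0.81 ± 0.22 (SE, adjusted p = 0.0515). After quantile normalization it was -0.76 (adjusted p = 0.00167), and Mrpl35 (-0.67), Mrps23 (-0.62), Mrpl46 (-0.55) and Mrps25 (-0.55) were called lower too, which makes 5 members, where 4.8% of all genes were.

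Mrpl1 was 7.72, 8.31 and 8.45 on the untreated knockout arrays and 6.85, 7.44 and 7.55 on the TGFB arrays. These values did not overlap either, but with a log2 fold change of -0.88 and a 95% interval of -1.61 to -0.15 it was not called (adjusted p = 0.276). Mrpl40 had -0.81 (95% interval -1.67 to 0.04). In all, 14 members had TGFB arrays entirely below the untreated arrays, where 11.1% of all genes did, and 27 after quantile normalization, where 13.4% did. Values above 0 were seen for 7 members and led by Mrpl9 (0.28, 95% interval -0.41 to 0.97), Mrpl48 (0.26) and Mrpl58 (0.26), whose product is an enzyme that frees stalled mitochondrial ribosomes.

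Whether the response to TGFB differed between reporter and knockout cells was tested as a difference of the differences. With 0 members called in either fraction, 0% and 0.00673% of all genes were called lower and 0% higher in both. An unadjusted p under 0.05 by limma was found for 0 members in the hCD2-positive fraction and for 1 in the hCD2-negative fraction. Over all 14860 genes it was found for 375 and 550. The median difference was -0.17 for the hCD2-positive fraction (all genes -0.06) and -0.26 for the hCD2-negative fraction (all genes -0.11), and 0.00 and -0.05 after quantile normalization. They were -0.01 and 0.00 without the narrow arrays. With array weights they were -0.24 and -0.61, and 21 members were called lower in the hCD2-negative fraction, where 20.3% of all genes were. The lowest values were -0.83 for Mrpl19 (95% interval -1.72 to 0.06) and for Mrpl45 (-1.68 to 0.03) in hCD2-negative cells, and -0.57 for Mrpl13 (-1.64 to 0.50) and -0.44 for Mrpl58 (-1.19 to 0.31) in hCD2-positive cells. The highest were 0.32 for Mrps28 (-0.25 to 0.89) and 0.14 for Mrpl22 in hCD2-negative cells, and 0.21 for Mrpl30 and 0.18 for Mrps23 in hCD2-positive cells.

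Other genes of mitochondrial translation. The counts that follow stand beside 9.66% of all genes called lower in hCD2-positive cells and 16.9% in hCD2-negative cells. Counts without the narrow arrays stand beside 7.47% and 4.81%. Of 5 further ribosomal proteins with other names, 3 were measured and 2 fell. These were Chchd1 (-1.20 in hCD2-positive and -1.16 in hCD2-negative cells, adjusted p = 0.00644 and 0.00558), a small-subunit protein, and Gadd45gip1 (-0.998 and -0.80, adjusted p = 0.00704 and 0.0199), a large-subunit protein. With the narrow arrays left out both held in hCD2-positive cells (adjusted p = 0.0217 and 0.0287) and neither in hCD2-negative cells (0.137 and 0.136), and Gadd45gip1 was not called in the latter after quantile normalization (-0.44, adjusted p = 0.0805). Of 10 translation factors 0 were called in either fraction, with medians of -0.35 and -0.39. Among 17 of 21 assembly factors, 2 fell in hCD2-positive cells (11.8%) and 4 in hCD2-negative cells (23.5%), shares near those of all genes, and without the narrow arrays 1 (Tfb1m) and 0 did. Tfb1m, which methylates the small ribosomal RNA, fell by 0.89 and 0.99, and Ddx28, a helicase for the large subunit, fell by 0.85 and 0.96. Of 19 enzymes that charge mitochondrial transfer RNA, 0 fell in hCD2-positive cells and 1, Sars2 (-0.58), in hCD2-negative cells, which was lost after quantile normalization (adjusted p = 0.111) and without the narrow arrays (0.584).

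Among 11 genes of mitochondrial transcription and RNA handling, 1 fell in hCD2-positive cells (9.09%) and 3 in hCD2-negative cells (27.3%), and without the narrow arrays 1 did in each. Slirp, which stabilises mitochondrial messenger RNA, fell by 1.34 ± 0.32 (SE, adjusted p = 0.00882) and by 1.85 ± 0.32 (SE, adjusted p = 0.000484) on the log2 scale, and was called in both without the narrow arrays (adjusted p = 0.0136 and 0.0187). Tfam, which packages mitochondrial DNA, had values of -0.40 and -0.50 (adjusted p = 0.384 and 0.227). Among 8 regulators of mitochondrial gene programmes, 3 fell in each fraction, namely Pprc1 (-1.15 and -1.05), a coactivator of NRF1, Myc (-0.93 and -1.36) and Esrra (-0.49 and -0.55), of which Esrra was not called after quantile normalization (adjusted p = 0.257 and 0.261). In each fraction 1 regulator fell without the narrow arrays, Pprc1 in hCD2-positive cells (adjusted p = 0.0109) and Myc in hCD2-negative cells (adjusted p = 0.0229). Of 8 measured cytosolic ribosomal protein genes out of 24, 3 and 6 fell, with Rplp0 at -1.39 in both, and without the narrow arrays 2 and 0 did. No gene of these lists was called higher in the deposited values, and 0 were called between the fractions or in knockout cells.

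Across the 15 reporter arrays, single members followed the mean of the members with Pearson correlations of 0.18 (Mrpl48) to 0.98 (Mrpl13), with a median of 0.84, against a median of 0.36 for all genes. Outside the members, Rad23b (0.990), Taf12 (0.985), Rer1, Dda1 and Psmd7 (0.982 each) were most like it. Rad23b had medians of 9.25 in untreated, 8.40 in hCD2-negative and 8.85 in hCD2-positive cells. These arrays share the differences in range described above, and after quantile normalization the members' median correlation was 0.50 and that of all genes -0.15. Then Rer1 (0.972), Rad23b (0.970), Sdr39u1, Shmt2 and Tfb1m led, and the lowest member was Mrpl9 (-0.58).

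Promoter letters were also counted by whether a member fell. Of the 29 members with a window that were called in either fraction, 5 held the NRF1 letters, 5 the ETS letters, 4 the YY1 letters and 2 an E-box. Of the other 30 with a window, 6, 4, 3 and 3 did. Mrpl1, called under all 3 settings above in both fractions, and Mrps5, not called lower in any of them, both had windows with none of the 4 motifs.

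Among the markers of other cells, Cd8a rose by 2.44 ± 0.27 (SE, adjusted p = 6.82e-06) on the log2 scale in hCD2-negative cells and by 2.47 ± 0.35 (SE, adjusted p = 0.000386) in TGFB-treated knockout cells, with 0.69 in hCD2-positive cells (adjusted p = 0.117). Cd8b1, its partner in the CD8 receptor of cytotoxic T cells, fell by 0.74 in hCD2-negative and by 0.95 in hCD2-positive cells, of which the first was lost after quantile normalization (adjusted p = 0.0728) and without the narrow arrays (adjusted p = 0.108). Without those arrays Cd8a was still called in hCD2-negative cells (2.57, adjusted p = 0.00101). The part of Cd8a-positive cells in the members' values was not tested. The array means of the 11 T cell markers ranged from 10.2 to 10.7 in untreated reporter cells, from 9.63 to 10.6 in the hCD2-negative and from 9.33 to 10.6 in the hCD2-positive fraction.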

How the data were processed

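Values are log2 expression values that the authors deposited for 23332 transcript clusters on 21 Affymetrix mouse exon arrays, summarised by RMA in Affymetrix Expression Console 1.2, with mm8 as the build, per the submitters' processing notes. Clusters were named from the array's annotation: 14996 had 1 gene symbol, 1019 several and 7317 none. For 135 symbols with more than 1 cluster the one with the highest mean was kept, leaving 14860 genes, and 14941 clusters matched a current gene table with 0 symbols changed. The tests were limma's moderated tests (limma 3.58.1, R 4.3.3) on the deposited values. All 21 arrays entered 1 fit with a mean per group and a term for study, 2-sided, with Benjamini-Hochberg adjustment over all genes, and 0.05 was the adjusted p below which a gene was called. Values with ± are standard errors unless given as SD. Arrays give no read depth, and their number limits the precision. Within groups, arrays correlated at 0.926 to 0.991. On simulated data for the hCD2-positive comparison, 158 of 200 genes changed by 1 log2 unit were recovered, with 5 false calls among 14860 genes. Recovery at smaller sizes, such as the members' median of -0.46 in this comparison, was not tested. Recovery and false calls with arrays that differ in range were not tested either.

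The members and gene lists were chosen with earlier results of these data known. All members may be named, and array values or fits are given for those with the 3 lowest and 3 highest log2 fold changes in a comparison of 2 groups (2 and 2 for differences of responses), and for the 2 with the highest and 2 with the lowest mean. From each other list up to 3 genes at each end were allowed, and for likeness the 5 closest genes. Array values of Mrps7 and Mrps25 were added after they were seen. Alternatives were 2 other scalings (median centring and quantile normalization), no study term, a replicate block, array weights, a trended and robust prior, each study or genotype alone, the other cluster of a gene, a filter that removed a share of 0.333 of the genes, the dimmest, a minimum of 2-fold, leaving out the 4 narrow arrays, and leaving out each array in turn. Quantile normalization without the narrow arrays was added after seeing the data. Promoter windows are RefSeq sequence on GRCm38.p6, a different build from that of the array values, matched by gene.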

Additional observations from a re-analysis of the deposited data

Results flagged for a closer look

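Within a group of 5 arrays, a value was listed when its gap to the nearest other array exceeded 0.71 of the group's range (Dixon's test), which chance gives in about 1 of 20 groups (5%). Of 132 groups examined, 10 were listed, and they fall on 2 arrays. These 132 groups do not cover all 68 members in all 3 reporter groups. Untreated reporter replicate 4, the array of widest range, was far above the other untreated arrays for Mrps28 (7.72), Mrpl12 (8.66), Mrps18a (9.11), Mrpl46 (8.48) and Mrpl4 (9.29). The hCD2-positive replicate 3, the array of narrowest range, was far below the others of its fraction for Mrpl52 (6.81), Mrpl41 (6.68), Mrpl20 (6.31), Mrps35 (6.76) and Mrpl58 (6.89). The members share these arrays, so the listed values are not independent of each other.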

How the results depend on the processing

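The members' median kept its sign in all alternatives for both comparisons of TGFB with untreated reporter cells and for the knockout comparison, and the counts of called members moved. In hCD2-positive cells, where 12 were called, 5 were called with no study term (7.35% of members, 7.07% of all genes called lower). In study 1 alone and study 2 alone 0 were, where 250 and 166 of all 14860 genes were called lower. Without the 4 narrow arrays 7 were (all genes, 7.47%). With a minimum of 2-fold 1 was, where 639 of all genes were called lower. In hCD2-negative cells, where 35 were, 17 were called with no study term (all genes called lower, 12.1%) and 57 with array weights (32.7%). In study 1 alone 0 were and in study 2 alone 1 was, where 508 and 397 of all genes were called lower. Without the narrow arrays 2 were (all genes, 4.81%). With quantile normalization and without the narrow arrays 10 were (9 lower, where 1109 of all genes were, and 1 higher, where 846 were). With a minimum of 2-fold 8 were, where 994 of all genes were called lower. Between the fractions 28 were called higher in hCD2-positive cells with array weights (all genes, 20.7%). In knockout cells, where 0 were called, 5 were with quantile normalization (all genes called lower, 4.8%). With median centring 1 was (1.47% of members, 2.48% of all genes), and without the dimmest genes (a share of 0.333) 1 was (1.52% and 2.62%). Array weights gave 2 (2.94% and 3.97%). Without the narrow arrays 3 were called lower, where 444 of all genes were. With quantile normalization and without them 9 were called (8 lower, where 5.94% of all genes were, and 1 higher, where 6.16% were). The difference between the hCD2-negative and knockout responses gave 21 with array weights (all genes called lower, 20.3%). Fits on 1 study or without the narrow arrays use fewer arrays, and the other causes were not tested.

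When single arrays were left out in turn, 5 to 17 members were called in hCD2-positive and 13 to 45 in hCD2-negative cells, 0 between the fractions, 0 to 1 in knockout cells and 0 in both differences of responses. Shares of all genes called in these fits are not given here. The 1 in knockout cells came without untreated reporter replicate 5, hCD2-positive replicate 1 or 3, or untreated knockout replicate 2. In these fits the sign of some uncalled values turned too: in hCD2-positive cells Mrps5 ranged from -0.17 to 0.12, Mrps14 from -0.13 to 0.19, Mrpl9 from -0.23 to 0.18 and Mrpl48 from -0.036 to 0.22, and in hCD2-negative cells Mrps5 from -0.16 to 0.0064 and Mrpl48 from -0.15 to 0.33. Between the fractions Mrpl48 ranged from -0.21 to 0.28. For the differences of responses Mrps23 ranged from -0.16 to 0.40 and Mrpl22 from -0.33 to 0.43.

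Signs also turned for the genes named here, and in members not named: 12 members were positive in each fraction after quantile normalization. The values below were uncalled on both sides except where a call is given. For Mrps5 in hCD2-positive cells the value became 0.16 with quantile normalization, 0.05 with median centring, 0.041 with array weights, 0.095 in study 2, 0.13 without the narrow arrays and 0.25 with quantile normalization and without them, and in hCD2-negative cells 0.33 (called), 0.11, 0.035 in study 2, 0.19 and 0.27 likewise. For Mrpl9 the value in hCD2-positive cells became 0.21 with quantile normalization, 0.028 with median centring, 0.13 with array weights, 0.19 without the narrow arrays and 0.31 with quantile normalization and without them (called), and in hCD2-negative cells 0.30 with quantile normalization, 0.024 with median centring, 0.305 without the narrow arrays and 0.41 with both (called). Mrps24 and Mrps16, called lower in hCD2-negative cells, had 0.044 and 0.029 with quantile normalization. Mrps14 in hCD2-positive cells had -0.027 in study 1. For Mrpl48 the other cluster gave -0.14 for the hCD2-positive fraction, -0.29 for the hCD2-negative fraction, -0.50 for knockout cells and 0.15 between the fractions, array weights gave -0.019 in hCD2-negative cells and 0.23 between the fractions, and study 1 gave -0.10 and 0.28. For the differences of responses, Mrpl30 had -0.21 in study 2, and Mrpl22 had -0.39 with array weights and -0.54 in study 2.

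The replicate numbers did not meet the rule for pairing, a correlation over 0.1 in every pair. Same-numbered deviations from the mean of each group within its study correlated between -0.26 and 0.05 for untreated against hCD2-negative arrays, and between -0.11 and 0.00 for untreated against hCD2-positive arrays. They correlated between -0.18 and 0.58 (median 0.39, against -0.29 for different numbers) in knockout cells, and between -0.30 and 0.73 (median 0.60, against -0.59) between the sorted fractions, where most pairs deviated together. Deviations of 2 or 3 arrays from their own mean sum to 0. The values for different numbers are therefore partly fixed by those for same numbers and are no independent reference. With the replicate number as a block, 11 members were called lower in the hCD2-positive fraction, where 11.0% of all genes were. In the hCD2-negative fraction 38 were, where 19.9% of all genes were called lower. In knockout cells 0 were called, where 2.18% of all genes were lower and 1.29% higher. Between the fractions 0 were, where 0.0538% were lower and 0.121% higher.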

Other observations

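Mrpl22, the counterpart of bacterial L22 at the peptide tunnel, had different levels in the 2 studies. In untreated reporter cells it was 3.56, 4.44 and 4.83 on the arrays of study 1 and 6.92 and 6.09 on those of study 2. In the hCD2-positive fraction it was 4.07, 4.80 and 3.75 in study 1 and 5.53 and 5.32 in study 2. The hCD2-negative fraction had 4.30, 4.47 and 3.93 in study 1 and 4.67 and 6.0 in study 2, of which 4.67 lay near the values of study 1, and untreated knockout cells, all of study 2, had 6.80, 6.58 and 8.11. On the reporter arrays Mrps16 ranged from 8.49 to 9.37 and Mrps18c from 8.40 to 10.13.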
